A study of Gallus gallus with 6 samples.

Results

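The growing chicken feather holds a pair of mesenchymal tissues, and their RNA is compared here: the dermal papilla, seated at the base of the follicle, and the pulp, the soft core above it. Both libraries came from follicles in the growth phase, 1 library for each tissue, and records were joined by their RefSeq transcript number. A record was kept where at least 1 of the 2 libraries held 20 or more counts. This left 6667 of the 9930 records listed in either library, and of the 10964 listed anywhere in the series. Of the 6667, 6535 were listed in both libraries, 98 were unlisted in the papilla and 34 were unlisted in the pulp. At the edge of the minimum, 80 records had 20 counts in their higher library and were kept, and 68 had 19 and were left out.

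The series sequenced total RNA of the chicken feather follicle in 6 libraries, 1 per group. Beside growth-phase papilla and pulp these were growth-phase epithelium, resting-phase papilla, and regenerating tissue 2 and 4 days after a wound. The labels state no treatment other than the wound, no strain, age or sex, and neither how the tissues were separated nor how many birds went into a library. With 1 library per group there is no replicate check on any difference given here and no test was made, so a difference cannot be set against the spread between birds.

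The dermal papilla is the inducing cell cluster of the follicle: it persists through moulting, signals to the epithelium around it and seeds the next feather. The pulp is a loose, vascular connective tissue that is laid down above the papilla while the feather grows, feeds the growing shaft and is resorbed as the feather matures. Feather follicles are also moved by bundles of smooth muscle that insert on the follicle wall.

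The library totals behind the scaled values were 3410045 for the papilla and 5683214 for the pulp, within the range of 3269376 to 6064791 over the series. Listed records held 1425395 counts in the papilla and 2364748 in the pulp, 41.8% and 41.6% of those totals. The tables list no count under 2, so an unlisted record held 0 or 1 counts. The factor that scales each library (trimmed mean of M values) was close to 1 in both, 0.997 and 1.02. At these depths 20 counts correspond to 5.88 scaled CPM in the papilla and 3.44 in the pulp. The pulp and epithelium tables have a different text layout from the other 4, and tissue and table set cannot be told apart for this pair. Over the series, pulp and epithelium both lay 4-fold or more above each of the 4 tables of the other layout for 29 records, and 4-fold or more below them for 30. Of the genes named below, this held for MUSTN1, MYH11, MYLK, DES, LRRN6A, CHRDL1, COMP, DCN, HSPB1, NOV, POSTN, SPON2 and RUNX1 on the papilla side. On the pulp side it held for CHCHD2, SEMA3G, KRT8, FBXL5, MRPS31, DRAXIN, FASN, HOXA11, NPY and TYR. The part of the table set in these values was not tested.

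Levels are given as scaled CPM (counts-per-million), written CPM for short. A fold is the ratio of the 2 scaled counts, followed in parentheses by its exact 95% interval, which covers counting error only. Where a library does not list a record, only a bound is given, computed as if that library held 3 counts. Log2 ratios, used for counts and medians, have 1 added to each scaled level. In counts of genes, higher and lower mean 2-fold or more in the papilla relative to the pulp on that scale. A measured gene is a list member that reached the minimum of 20 counts. Counts of genes and medians cover measured genes, whereas the summed level of a list also includes its members under that minimum. In bulk RNA, fewer cells of a type and less RNA per cell cannot be told apart.

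Of the 6667 records, 980 (14.7%) were higher in the papilla by 2-fold or more and 1271 (19.1%) were lower by the same margin, together 33.8%. In 1189 of the 6667 only the pulp reached 20 counts, and in 297 only the papilla did. The minimum thus let in more records through the deeper pulp library, and both shares depend in part on it. These shares are the background for the list counts below, and a list near them does not stand out from all records. At 4-fold, 301 (4.51%) were higher and 410 (6.15%) lower. At 16-fold, 48 (0.72%) were higher and 41 (0.615%) lower. For 632 records (9.48%) the counting interval lay wholly beyond 2-fold higher, and for 723 (10.8%) wholly beyond 2-fold lower. The median log2 ratio was -0.09, the quartiles were -0.77 and 0.57, and 5% of records lay below -2.19 and 5% above 1.91. In the plot of all records the papilla-side extremes include contractile genes, OSTN and WFIKKN2, and the pulp-side extremes include secreted factors, retinoid genes and a chemokine.

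**Figure D1:**
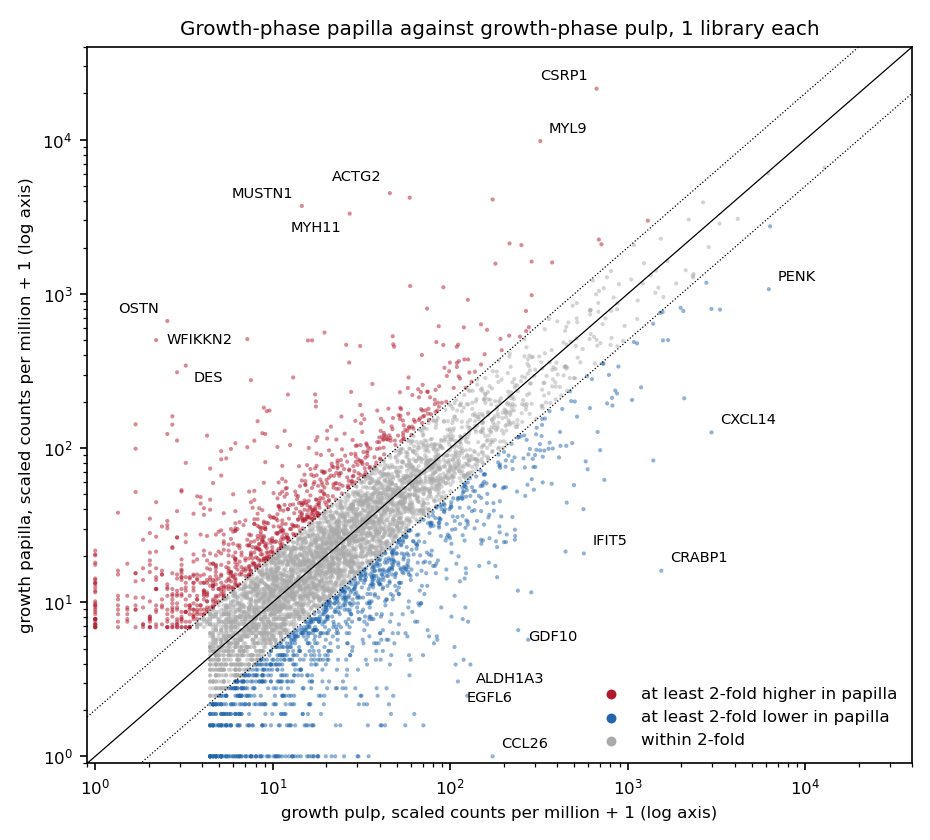
Each of the 6667 records as 1 point, with its scaled CPM plus 1 in the pulp (x axis, log) and in the papilla (y axis, log). The solid line marks equality and the dotted lines 2-fold; CSRP1 and MYL9 stand furthest up on the papilla side, and CCL26, unlisted in the papilla, lies on the bottom edge.

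Among named records with at least 200 counts, the highest ratio belonged to OSTN, which encodes osteocrin (musclin), a secreted peptide known from bone and muscle. OSTN stood at 666 CPM in the papilla and 1.55 in the pulp, 431-fold higher (226 to 943). MUSTN1, a small nuclear protein of the musculoskeletal system, stood at 3725 CPM in the papilla and 13.6 in the pulp, 274-fold higher (219.8 to 346). WFIKKN2, a secreted multidomain protein that binds myostatin and GDF11, stood at 501 CPM in the papilla and 1.20 in the pulp, 416-fold higher (201 to 1036). All of these were far above the pulp, and all were highest in the growth-phase papilla among the 6 libraries. The resting papilla held 303 CPM of OSTN, 1487 of MUSTN1 and 67.9 of WFIKKN2. On days 2 and 4 OSTN stood at 69.9 and 73.4 CPM. In the same libraries MUSTN1 stood at 191 and 153, and WFIKKN2 at 5.44 and 1.78. In the epithelium OSTN stood at 28.8 CPM, above the pulp, while WFIKKN2 was at 0.959.

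Of the remaining 12 of the 15 highest records, 6 were contractile or muscle-associated genes. MYH11, the smooth muscle myosin heavy chain, stood at 3319 CPM in the papilla and 26.1 in the pulp, 127-fold higher (108 to 149.98). ACTG2, the enteric smooth muscle actin, stood at 4502 CPM in the papilla and 44.7 in the pulp, 101-fold higher (89.1 to 114). MYLK, the kinase that phosphorylates myosin light chain, stood at 4208 CPM in the papilla and 58.1 in the pulp, 72.4-fold higher (65.0 to 80.9). These 3 genes also reached 2374, 642 and 1124 CPM in the resting papilla, in that order, above the pulp in each case. DES, the muscle intermediate filament desmin, stood at 342 CPM in the papilla and 2.24 in the pulp, 153-fold higher (89.1 to 288), and was unlisted in the epithelium. HSPB7, a small heat shock protein of muscle, stood at 309 CPM in the papilla and 1.89 in the pulp, 163-fold higher (91.0 to 328). FHL1, a LIM-domain protein of muscle, stood at 141 CPM in the papilla and 1.72 in the pulp, 81.9-fold higher (44.2 to 172). All 3 were also above the pulp in the resting papilla, at 129.7, 129 and 87.7 CPM.

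The other records among the 15 highest are less tied to muscle. CHRDL1, a secreted BMP antagonist, stood at 111 CPM in the papilla and 1.89 in the pulp, 58.6-fold higher (32.4 to 118), and was at 134 in the resting papilla. LRRN6A, the leucine-rich repeat protein LINGO1, stood at 159.8 CPM in the papilla and 1.72 in the pulp, 92.9-fold higher (50.1 to 195). TPPP3, a tubulin-binding protein, stood at 508 CPM in the papilla and 6.19 in the pulp, 82.1-fold higher (59.0 to 118). TMEM255B, RCN2 and SCP2 complete the group. TMEM255B stood at 98.0 CPM in the papilla and 0.688 in the pulp, 142-fold higher (55.1 to 526), and SCP2 at 122 CPM in the papilla and 1.55 in the pulp, 79.1-fold higher (41.3 to 174). RCN2 stood at 142 CPM in the papilla and 0.688 in the pulp, 206-fold higher (79.8 to 758). It was not low outside the pulp, with 57.8 CPM in the epithelium and 138 on day 2. Of the 15 highest records, 6 were among those in which the epithelium and pulp tables stand apart from the other 4: MUSTN1, MYH11, DES, MYLK, LRRN6A and CHRDL1. Among all 6667 kept records 56 stood apart in this way, with 27 among the 301 that were 4-fold higher. The rule itself asks for 4-fold between pulp and papilla, so such records lie toward the extremes by construction.

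On the pulp side, CCL26, a chemokine, had the lowest ratio. It held 1003 counts in the pulp (173 CPM), was unlisted in the papilla, at least 195-fold lower, and was unlisted in the other 4 libraries too. CRABP1, the cellular retinoic acid binding protein, stood at 15.01 CPM in the papilla and 1547 in the pulp, 103-fold lower (78.3 to 139). ALDH1A3, an enzyme that makes retinoic acid, stood at 1.47 CPM in the papilla and 124 in the pulp, 84.1-fold lower (35.9 to 259.7). For both retinoid genes the pulp was the highest of the 6 libraries, and no other library exceeded 15.01 CPM of CRABP1 or 8.52 of ALDH1A3. GDF10, a BMP-related ligand, stood at 5.59 CPM in the papilla and 241 in the pulp, 43.0-fold lower (27.5 to 71.7). Its pulp level was the highest of the 6 libraries. GDF2, the ligand BMP9 known from liver and from vascular signalling, stood at 0.588 CPM in the papilla and 42.0 in the pulp, 71.3-fold lower (19.5 to 592), with 2 counts in the papilla. EGFL6, a secreted EGF-repeat matrix protein, stood at 2.06 CPM in the papilla and 109.6 in the pulp, 53.2-fold lower (25.7 to 133). CYTL1, a small secreted cytokine-like protein, stood at 2.94 CPM in the papilla and 129 in the pulp, 43.8-fold lower (23.7 to 91.8). For GDF10, GDF2, EGFL6 and CYTL1 the pulp was again the highest library, and the epithelium held 0.959 CPM of GDF10 and 0.479 of CYTL1 and did not list GDF2 or EGFL6. SUSD3, a sushi-domain membrane protein, stood at 3.24 CPM in the papilla and 118 in the pulp, 36.5-fold lower (20.2 to 73.4).

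Interferon-induced genes were also among the 15 lowest. IFIT5, an interferon-induced RNA-binding protein, stood at 19.7 CPM in the papilla and 565 in the pulp, 28.7-fold lower (22.5 to 37.1), and SAMD9L stood at 0.588 CPM in the papilla and 54.9 in the pulp, 93.2-fold lower (25.6 to 773). Both were higher on day 2 of regeneration than in the papilla, at 392 and 22.05 CPM. The last 5 of the 15 lowest were shared with the epithelium. KRT8 stood at 2.94 CPM in the papilla and 106 in the pulp, 36.1-fold lower (19.5 to 75.7), with 495 in the epithelium. CHCHD2, a mitochondrial protein, stood at 4.71 CPM in the papilla and 274 in the pulp, 58.2-fold lower (35.7 to 102), while the epithelium was at 271. SEMA3G, a secreted semaphorin, stood at 0.883 CPM in the papilla and 61.7 in the pulp, 70.0-fold lower (23.7 to 341), with 85.8 in the epithelium. All 3 were thus near or above the pulp level in the epithelium. FBXL5 stood at 0.588 CPM in the papilla and 40.1 in the pulp, 68.1-fold lower (18.6 to 566), with 17.5 in the epithelium. MRPS31 stood at 0.588 CPM in the papilla and 39.6 in the pulp, 67.2-fold lower (18.4 to 558), with 29.2 there. These 5 records stand apart in the epithelium and pulp tables together, whereas for the other 10 of the lowest 15 this was not so. Among the 410 records that were 4-fold lower, 29 stood apart.

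**Figure D2:**
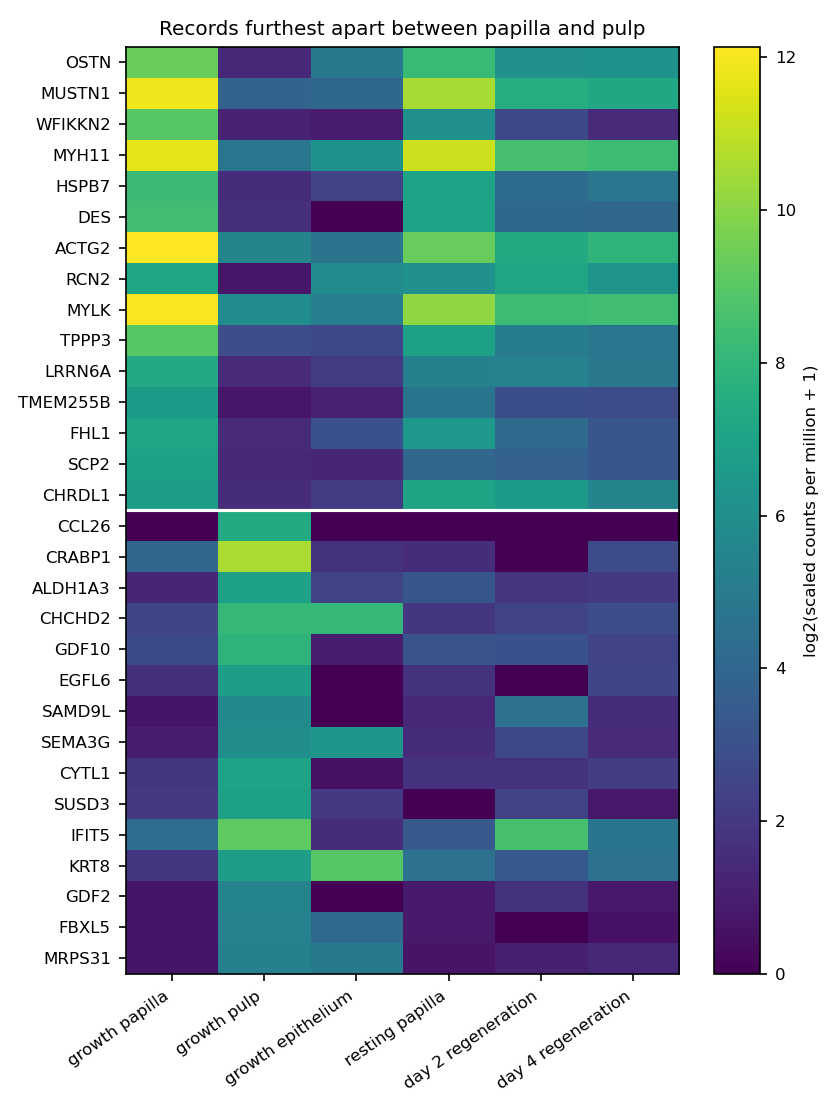
The 15 named records highest in the papilla relative to the pulp (upper rows) and the 15 lowest (lower rows) in all 6 libraries, with colour giving log2 of scaled CPM plus 1. Most upper rows are also bright in the resting papilla, and CHCHD2, SEMA3G, KRT8, FBXL5 and MRPS31 are bright in the epithelium as well as in the pulp.

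The most abundant records show how much of each library these genes filled. The 10 most abundant papilla records made up 16.1% of its listed counts, and 7 of them were CSRP1, MYL9, ACTG2, MYLK, TAGLN, MUSTN1 and MYH11. CSRP1, a LIM protein of the actin cytoskeleton, alone took 5.12% of listed counts in the papilla and 0.164% in the pulp. It stood at 21461 CPM in the papilla and 667 in the pulp, 32.2-fold higher (31.1 to 33.2). The 10 most abundant pulp records made up 12.6% and included PENK, CXCL14, COL6A1 and FTH1. PENK, the enkephalin precursor, stood at 1072 CPM in the papilla and 6242 in the pulp, 5.82-fold lower (5.63 to 6.03). CXCL14, a chemokine of skin, stood at 125 CPM in the papilla and 2968 in the pulp, 23.7-fold lower (21.5 to 26.1). FTH1, the ferritin heavy chain that stores iron, stood at 2747 CPM in the papilla and 6347 in the pulp, 2.31-fold lower (2.26 to 2.36). The records abundant in both libraries were RPLP1 and the record named ARIH1. ARIH1, a ubiquitin ligase, stood at 6607 CPM in the papilla and 12864 in the pulp, 1.95-fold lower (1.92 to 1.98).

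For 163 records the counting interval lay wholly within a 25% difference, the higher library over the lower. The 8 most abundant of these were COL1A2, EEF2 and the ribosomal protein genes RPLP1, RPL7, RPS12, RPL38, RPL37 and RPL7A. COL1A2, a chain of collagen type I, stood at 2858 CPM in the papilla and 3291 in the pulp. EEF2, the translation elongation factor, stood at 1239 CPM in the papilla and 1046 in the pulp. This chain of the main connective tissue collagen thus lay close to equality between the tissues, at high counts in both.

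The smooth muscle apparatus had the largest difference in summed level, in scaled CPM, among the 48 gene lists. Of 31 measured members, 25 were higher and 2 lower, with a median log2 ratio of 3.03 against -0.09 for all records. The list took 12.7% of listed counts in the papilla and 0.523% in the pulp. In the resting papilla it took 3.64%, with 1.595% on day 2, 1.45% on day 4 and 0.115% in the epithelium. The growth-phase papilla thus held the most and the epithelium the least. Without the 3 members that stand apart in the epithelium and pulp tables the median was 2.74.

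All 9 measured contractile filament genes were higher, with a median of 4.56. Beside MYH11, ACTG2 and MYLK, MYL9, the regulatory light chain that MYLK phosphorylates, stood at 9809 CPM in the papilla and 321 in the pulp, 30.5-fold higher (29.2 to 32.0). TAGLN, the actin-binding protein transgelin, stood at 4101 CPM in the papilla and 173 in the pulp, 23.8-fold higher (22.3 to 25.4). Actin genes have nearly identical coding sequences, so counts for single actins, ACTG2 included, are uncertain where reads could be shared. Of the 10 filament and adhesion genes, 9 were higher and none lower, with a median of 3.19. DMN, the intermediate filament protein synemin that partners desmin, stood at 275 CPM in the papilla and 6.54 in the pulp, 42.0-fold higher (30.4 to 59.7). Of the 10 genes for excitation and relaxation, 6 were higher and 2 lower. KCNMB1, the regulatory subunit of the large-conductance potassium channel of smooth muscle, stood at 182 CPM in the papilla and 7.91 in the pulp, 23.0-fold higher (17.0 to 31.7). PPP1R12A, the targeting subunit of myosin phosphatase, stood at 174 CPM in the papilla and 8.60 in the pulp, 20.3-fold higher (15.2 to 27.6). CACNA1H, a T-type calcium channel, stood at 222 CPM in the papilla and 16.3 in the pulp, 13.6-fold higher (10.96 to 17.0). Each of these 3 acts on the contraction of smooth muscle. GUCY1A3, a subunit of the nitric oxide receptor guanylate cyclase, stood at 149 CPM in the papilla and 28.2 in the pulp, 5.29-fold higher (4.43 to 6.35). Both lower members, named after their values were seen, were endothelin receptors. EDNRA stood at 66.5 CPM in the papilla and 153 in the pulp, 2.30-fold lower (1.99 to 2.68), and EDNRB at 2.06 CPM in the papilla and 8.77 in the pulp, 4.26-fold lower (1.92 to 11.1). PDE5A, the phosphodiesterase that ends the same cyclic GMP signal, was named after its values were seen and was within 2-fold, at 16.5 CPM in the papilla and 13.9 in the pulp. All contractile filament genes were thus on the papilla side, genes of excitation and relaxation were mixed, and both endothelin receptors were on the pulp side. Only 2 transcriptional regulators of the programme were measured: MKL1, a coactivator of serum response factor, at 5.88 CPM in the papilla and 2.24 in the pulp, and MEF2D, at 8.83 CPM in the papilla and 10.7 in the pulp.

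Markers of neighbouring contractile cells differed from this list. Of 6 pericyte genes, 2 were higher and 1 lower, and the list's summed level was 129 CPM in the papilla and 176 in the pulp. CSPG4, the pericyte proteoglycan NG2, stood at 41.8 CPM in the papilla and 10.7 in the pulp, 3.92-fold higher (2.89 to 5.37), and MCAM, a cell adhesion molecule of vessel walls, at 19.1 CPM in the papilla and 3.10 in the pulp, 6.18-fold higher (3.62 to 11.1). PDGFRB, the receptor by which pericytes are recruited, stood at 15.3 CPM in the papilla and 94.1 in the pulp, 6.15-fold lower (4.62 to 8.34). Surface markers of pericytes were thus split. Of 5 striated muscle genes, 3 were higher, with summed levels of 156 and 70.2. ACTA1, skeletal muscle actin, stood at 37.96 CPM in the papilla and 1.89 in the pulp, 20.1-fold higher (10.8 to 41.2), and ACTC1, cardiac actin, at 39.7 CPM in the papilla and 3.10 in the pulp, 12.8-fold higher (7.82 to 22.3). TNNC1, the slow and cardiac troponin C, stood at 34.4 CPM in the papilla and 15.1 in the pulp, 2.27-fold higher (1.71 to 3.03). MB, myoglobin, was within 2-fold, at 4.41 CPM in the papilla and 8.26 in the pulp. NEB, named after its values were seen, was also within 2-fold, at 36.2 CPM in the papilla and 40.1 in the pulp. In the epithelium TNNC1 stood at 59.2 CPM and MB at 17.0, both above the papilla. NEB, at 19.4 CPM there, was below the papilla, and ACTA1 and ACTC1 were unlisted in the epithelium. The part of any muscle bundle taken with the papilla in these values was not tested.

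Matrix lists went both ways, and collagens summed to 8426 CPM in the papilla and 11541 in the pulp. Fibrillar collagens, which build the bulk fibres, were within 2-fold for all 6 measured members, from COL3A1 at 112 CPM in the papilla and 70.9 in the pulp to COL5A1 at 195 CPM in the papilla and 366 in the pulp. The other collagens split: of 16 measured, 6 were higher and 8 lower. Higher ones included fibril-associated collagens. COL14A1 stood at 30.01 CPM in the papilla and 1.38 in the pulp, 21.8-fold higher (10.7 to 51.9), and COL12A1 at 486 CPM in the papilla and 82.6 in the pulp, 5.89-fold higher (5.32 to 6.53). On the pulp side, COL21A1, a further fibril-associated collagen, stood at 17.1 CPM in the papilla and 164 in the pulp, 9.62-fold lower (7.37 to 12.8). COL13A1, a transmembrane collagen, held 16.9 CPM in the pulp (98 counts) and was unlisted in the papilla, at least 19-fold lower. Among genes named after their values were seen, the basement membrane chains split within their own family. COL4A1 stood at 2098 CPM in the papilla and 710.4 in the pulp, 2.95-fold higher (2.84 to 3.07), and COL4A2 at 607 CPM in the papilla and 276 in the pulp, 2.20-fold higher (2.06 to 2.35). COL4A5 stood at 74.4 CPM in the papilla and 301 in the pulp, 4.04-fold lower (3.54 to 4.63), and COL4A6 at 95.6 CPM in the papilla and 321 in the pulp, 3.35-fold lower (2.98 to 3.78). The first pair was on the papilla side and the other on the pulp side. Of the beaded filament chains, COL6A1 stood at 799 CPM in the papilla and 2966 in the pulp, 3.71-fold lower (3.57 to 3.87), and COL6A2 at 500.5 CPM in the papilla and 1688 in the pulp, 3.37-fold lower (3.20 to 3.55), whereas COL6A3 was level at 67.7 CPM in the papilla and 67.4 in the pulp.

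Of 16 measured proteoglycans, 5 were higher and 5 lower, with a median of 0.12. BGN, biglycan, stood at 185 CPM in the papilla and 16.5 in the pulp, 11.2-fold higher (9.03 to 14.04). DCN, decorin, which binds collagen fibrils and TGF-beta, stood at 286 CPM in the papilla and 57.3 in the pulp, 4.998-fold higher (4.41 to 5.68). FMOD, fibromodulin, stood at 19.7 CPM in the papilla and 3.44 in the pulp, 5.73-fold higher (3.43 to 9.97). All 3 are small leucine-rich proteoglycans, and LUM, lumican, named after its values were seen, was a further higher member at 1599 CPM in the papilla and 374 in the pulp, 4.27-fold higher (4.06 to 4.49). The family was not uniform, since OGN, osteoglycin, named likewise, stood at 29.1 CPM in the papilla and 136 in the pulp, 4.68-fold lower (3.79 to 5.82). SDC1, a cell surface heparan sulfate proteoglycan, stood at 61.2 CPM in the papilla and 738 in the pulp, 12.1-fold lower (10.5 to 13.9).

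**Figure D3:**
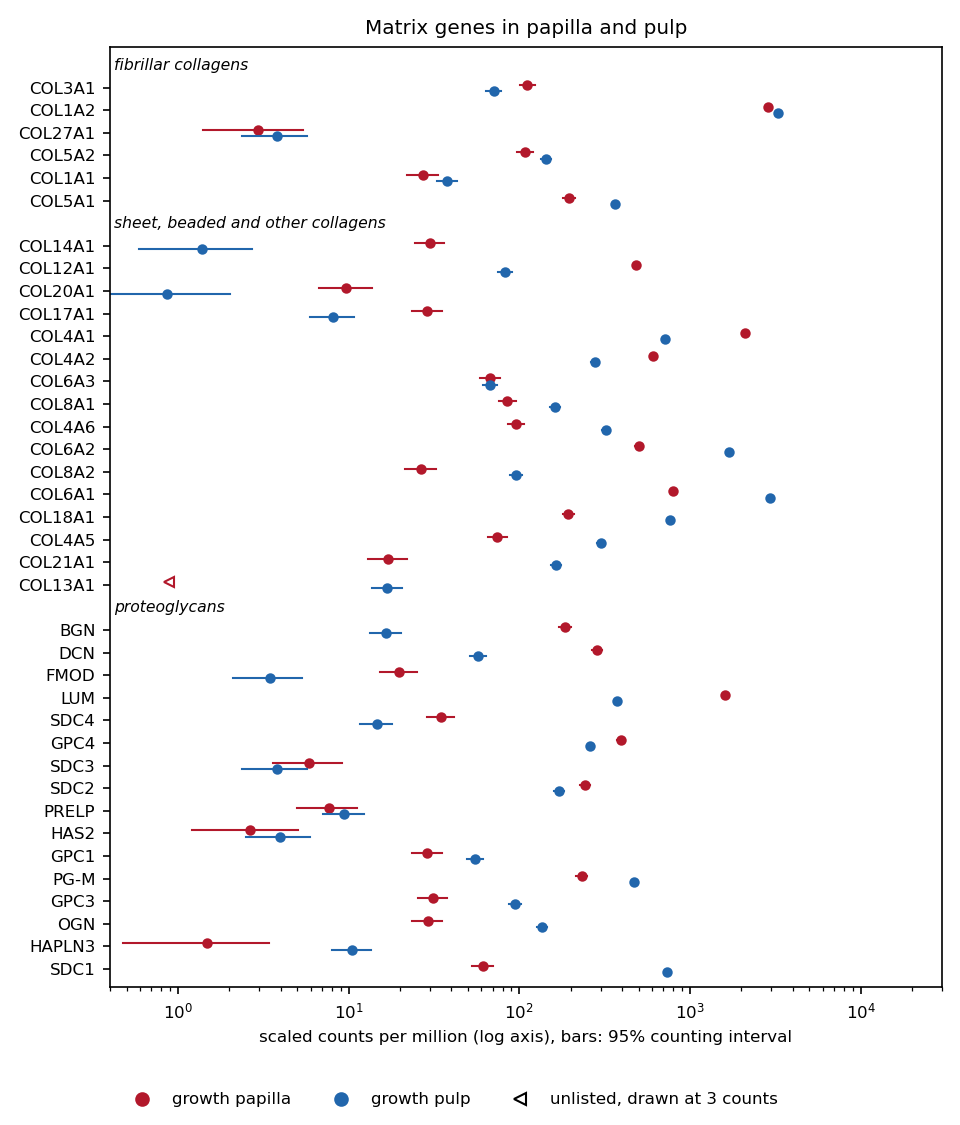
Scaled CPM (x axis, log) of all measured collagens and proteoglycans in the papilla (red) and the pulp (blue), with bars for the 95% counting interval, cut at the axis where they reach further left, and open triangles for unlisted records. Red and blue lie close for the fibrillar collagens and far apart for COL14A1, COL21A1, BGN and SDC1; PG-M is the versican record.

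Of 21 matrix glycoproteins, 6 were higher and 10 lower, with a median of -0.75. POSTN, periostin, a matricellular protein of fibrous tissue, stood at 29.1 CPM in the papilla and 1.55 in the pulp, 18.8-fold higher (9.52 to 42.4). SPON2, spondin 2, stood at 20.3 CPM in the papilla and 1.20 in the pulp, 16.9-fold higher (7.76 to 43.5). MATN2, matrilin 2, held 7.65 CPM in the papilla (26 counts) and was unlisted in the pulp, at least 14-fold higher. EGFL6 was the lowest of the list. Of genes chosen after their values were seen, FN1, fibronectin, stood at 584 CPM in the papilla and 160.3 in the pulp, 3.64-fold higher (3.37 to 3.94). FBN1, fibrillin, the backbone of elastic microfibrils, stood at 126 CPM in the papilla and 676 in the pulp, 5.36-fold lower (4.85 to 5.93), and NID1, nidogen 1, which links laminin to collagen IV, at 80.9 CPM in the papilla and 579 in the pulp, 7.16-fold lower (6.33 to 8.12). Periostin and fibronectin thus lay on the papilla side and the microfibril and nidogen genes on the pulp side.

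Of 7 laminins, 3 were higher and none lower. LAMB2, the beta chain of laminins of muscle and vessel basement membranes, stood at 111 CPM in the papilla and 6.88 in the pulp, 16.1-fold higher (11.6 to 22.9). LAMA5 stood at 102 CPM in the papilla and 28.4 in the pulp, 3.61-fold higher (2.99 to 4.37), and LAMA1 at 25.9 CPM in the papilla and 7.91 in the pulp, 3.27-fold higher (2.27 to 4.78). The measured laminins that differed were thus all on the papilla side. Of 6 integrins, 2 were higher and 1 lower. ITGA1, a collagen and laminin receptor, stood at 33.0 CPM in the papilla and 6.02 in the pulp, 5.47-fold higher (3.72 to 8.25). ITGB2, the leukocyte integrin beta chain, stood at 8.24 CPM in the papilla and 22.4 in the pulp, 2.71-fold lower (1.79 to 4.24). Of 10 collagen-processing genes, 3 were higher and 2 lower. PLOD2, the lysyl hydroxylase of collagen telopeptides, stood at 137 CPM in the papilla and 20.3 in the pulp, 6.74-fold higher (5.50 to 8.32). P4HA3, a prolyl hydroxylase subunit, stood at 24.1 CPM in the papilla and 119.5 in the pulp, 4.95-fold lower (3.94 to 6.31), and SERPINH1, the collagen chaperone, at 477 CPM in the papilla and 1129 in the pulp, 2.37-fold lower (2.24 to 2.50). Of 9 matrix proteases and inhibitors, 2 were higher and 3 lower. The furthest apart was MMP16, a membrane-anchored metalloprotease, at 11.5 CPM in the papilla and 50.4 in the pulp, 4.39-fold lower (3.14 to 6.30).

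Wnt ligands signal through Frizzled receptors, R-spondins raise the response through LGR receptors, and secreted inhibitors such as DKK and SFRP proteins limit it. Of 8 measured ligands and agonists, 1 was higher and 7 lower, with a median of -2.62. WNT5A, a ligand of the beta-catenin independent branch, stood at 8.24 CPM in the papilla and 88.1 in the pulp, 10.7-fold lower (7.31 to 16.2). WNT6 held 11.9 CPM in the pulp (69 counts) and was unlisted in the papilla, at least 13-fold lower. WNT11 stood at 0.883 CPM in the papilla and 14.8 in the pulp, 16.8-fold lower (5.55 to 82.9), and WNT5B at 1.18 CPM in the papilla and 14.96 in the pulp, 12.7-fold lower (4.79 to 47.7). The 1 higher member was RSPO3, an R-spondin, chosen after its values were seen, at 45.3 CPM in the papilla and 16.5 in the pulp, 2.74-fold higher (2.11 to 3.58). Every Wnt ligand gene that reached the minimum was on the pulp side, among levels that were low in the papilla. WNT6, WNT11, WNT5B and WNT2B reached it in the pulp only, so the minimum itself favoured that side for them. WNT4, named after its values were seen, was under the minimum with 13 counts in the papilla and 11 in the pulp. It was 2.02-fold higher (0.836 to 4.98).

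Of 12 Wnt inhibitors, 1 was higher and 5 lower. DKK2, which blocks the LRP coreceptors, was the higher one, at 230.4 CPM in the papilla and 26.7 in the pulp, 8.64-fold higher (7.27 to 10.3). The pulp-side inhibitors were DRAXIN at 1.18 CPM in the papilla and 29.6 in the pulp, 25.1-fold lower (9.64 to 93.3), and SFRP4 at 1.18 CPM in the papilla and 12.2 in the pulp, 10.4-fold lower (3.88 to 39.1). Pgo1, the record of APCDD1, a membrane-bound inhibitor, stood at 23.0 CPM in the papilla and 101 in the pulp, 4.38-fold lower (3.46 to 5.63). SFRP2 and SOSTDC1 were the remaining lower members. FRZB, named like them after the values were seen, was within 2-fold, at 787 CPM in the papilla and 616 in the pulp. Of 11 receptors, 4 were higher and 1 lower. FZD8 stood at 35.9 CPM in the papilla and 3.10 in the pulp, 11.6-fold higher (7.04 to 20.2), and LGR4, the R-spondin receptor, at 31.5 CPM in the papilla and 5.16 in the pulp, 6.10-fold higher (4.04 to 9.48). FZD6 stood at 3.24 CPM in the papilla and 32.5 in the pulp, 10.04-fold lower (5.49 to 20.5). Of 6 effectors and targets, none was higher and 3 were lower. LEF1, the transcription factor through which beta-catenin acts, stood at 1.47 CPM in the papilla and 38.01 in the pulp, 25.8-fold lower (10.9 to 80.4), and AXIN1, the scaffold of the destruction complex, at 4.71 CPM in the papilla and 31.1 in the pulp, 6.61-fold lower (3.96 to 11.8). The measured Wnt ligands, LEF1 and 5 of the 12 inhibitors were thus on the pulp side, and DKK2 and most of the differing receptors on the papilla side. In the epithelium WNT6 stood at 43.6 CPM, WNT5B at 28.0 and LEF1 at 41.5, each above the pulp. WNT5A, at 39.3 CPM there, was below the pulp, and WNT11 and WNT2B were unlisted in the epithelium.

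Among BMP and TGF-beta ligands, 2 of 9 were higher and 5 lower. GDF10 and GDF2 have been given among the lowest records. GDF3 stood at 1.18 CPM in the papilla and 15.3 in the pulp, 13.0-fold lower (4.91 to 48.8), and INHBA, the activin A subunit, at 6.77 CPM in the papilla and 35.1 in the pulp, 5.18-fold lower (3.36 to 8.36). The 2 higher ligands, BMP7 and TGFB2, were chosen after their values were seen. BMP7 stood at 112 CPM in the papilla and 27.2 in the pulp, 4.11-fold higher (3.41 to 4.98), and TGFB2 at 12.4 CPM in the papilla and 2.24 in the pulp, 5.53-fold higher (2.91 to 11.2). Of 9 antagonists, 4 were higher and 2 lower. Beside WFIKKN2 and CHRDL1, NOG, noggin, which sequesters BMP, held 6.77 CPM in the papilla (23 counts) and was unlisted in the pulp, at least 13-fold higher. BAMBI, a membrane pseudoreceptor, stood at 71.8 CPM in the papilla and 594 in the pulp, 8.27-fold lower (7.26 to 9.46). The other lower antagonist, GREM1, the secreted BMP antagonist gremlin, was named after its values were seen and stood at 1.77 CPM in the papilla and 4.64 in the pulp, 2.63-fold lower (1.06 to 7.79). Secreted antagonists were thus found on either side, and the remaining 3 were within 2-fold. Of 5 receptors 1 was lower, near the 19.1% of all records: ACVR2B, at 2.06 CPM in the papilla and 9.63 in the pulp, 4.68-fold lower (2.13 to 12.2). Of 9 effectors and targets, 2 were higher and 3 lower. ID4, a dominant-negative helix-loop-helix factor, stood at 128 CPM in the papilla and 10.7 in the pulp, 12.0-fold higher (9.20 to 15.96). SMAD3, which carries the TGF-beta signal, stood at 3.53 CPM in the papilla and 12.7 in the pulp, 3.60-fold lower (1.95 to 7.29). SMAD1, which carries the BMP signal, stood at 8.83 CPM in the papilla and 1.89 in the pulp, 4.67-fold higher (2.27 to 10.3). The other lower members were SMAD6 and ID2. SMAD6 stood at 12.1 CPM in the papilla and 35.4 in the pulp, 2.94-fold lower (2.09 to 4.21). ID2, named after its values were seen, stood at 640 CPM in the papilla and 1390 in the pulp, 2.17-fold lower (2.07 to 2.28).

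**Figure D4:**
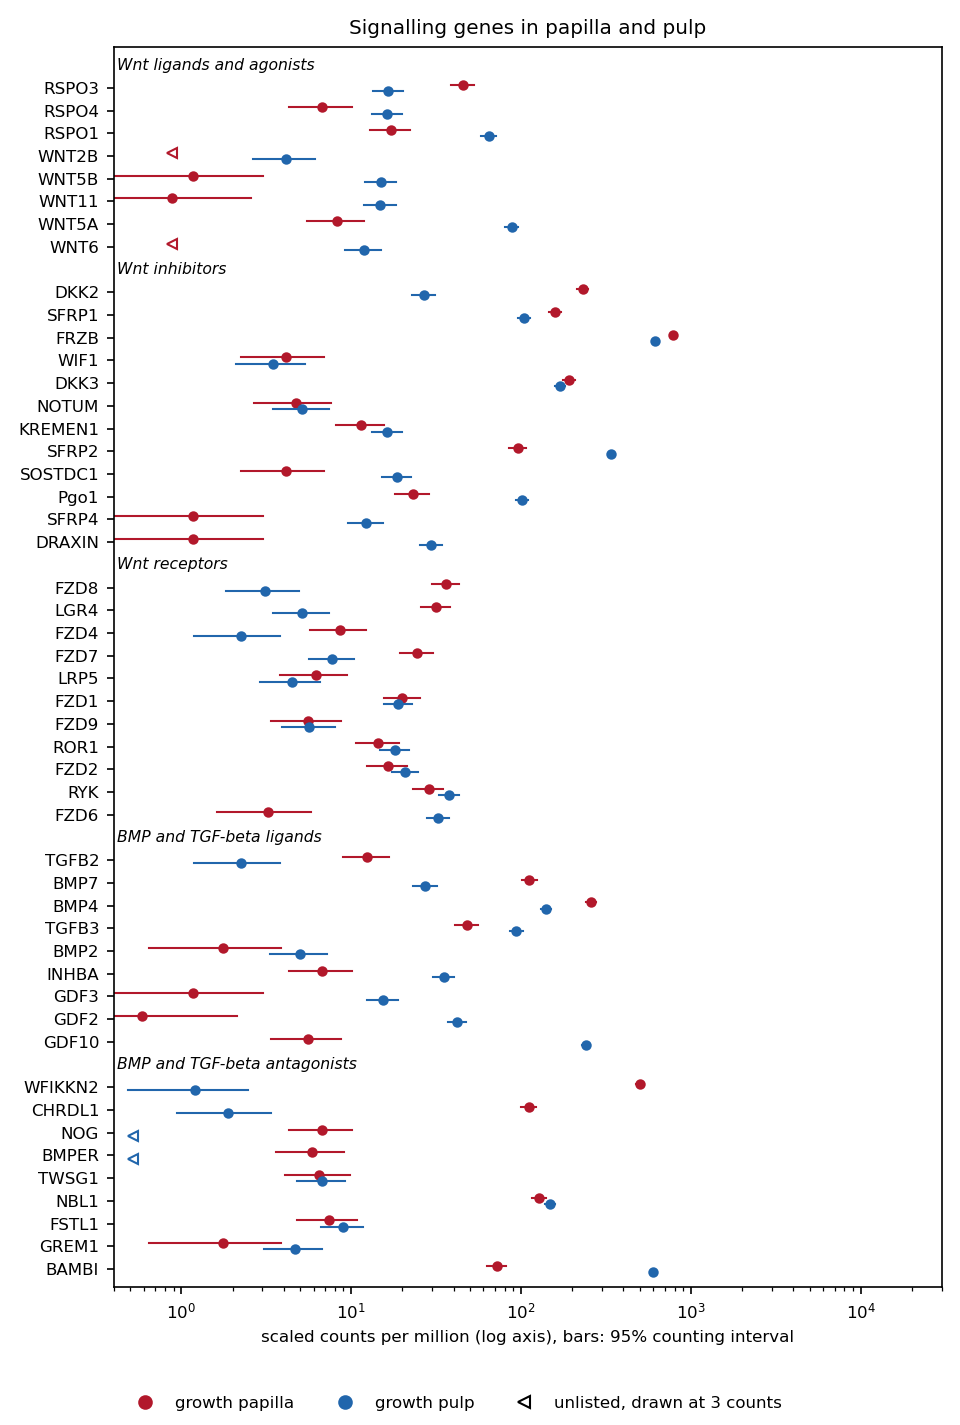
Scaled CPM (x axis, log) of the measured Wnt ligands, inhibitors and receptors and of BMP and TGF-beta ligands and antagonists in the papilla (red) and the pulp (blue), with bars for the 95% counting interval, cut at the axis where they reach further left, and open triangles for unlisted records. Blue lies to the right for 7 of the 8 Wnt ligands and agonists, and red lies furthest to the right of blue for WFIKKN2 and CHRDL1.

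Other signalling families gave fewer measured members. Of 12 FGF pathway genes, 2 were higher, near the 14.7% of all records, and 1 was lower. FGF7, the epithelial growth factor made by mesenchyme, stood at 13.5 CPM in the papilla and 2.06 in the pulp, 6.56-fold higher (3.42 to 13.6). FGFBP1, which releases FGF from matrix, stood at 75.03 CPM in the papilla and 22.2 in the pulp, 3.38-fold higher (2.73 to 4.21). DUSP6, a phosphatase induced by FGF signalling, stood at 5.59 CPM in the papilla and 16.3 in the pulp, 2.92-fold lower (1.77 to 5.07). Of 5 hedgehog pathway genes, 2 were higher and 1 lower. CDON, a hedgehog coreceptor, held 6.18 CPM in the papilla (21 counts) and was unlisted in the pulp, at least 11-fold higher, and BOC, its relative, stood at 430.2 CPM in the papilla and 194 in the pulp, 2.22-fold higher (2.05 to 2.40). HHIP, the secreted hedgehog decoy, held 6.54 CPM in the pulp (38 counts) and was unlisted in the papilla, at least 7-fold lower. Both differing coreceptors were on the papilla side and the decoy was on the pulp side. CDON reached the minimum in the papilla only and HHIP in the pulp only, so the minimum itself favoured those sides. PTCH1 was within 2-fold, at 21.5 CPM in the papilla and 37.5 in the pulp. SMO, named after its values were seen, was also within 2-fold, at 27.4 CPM in the papilla and 46.3 in the pulp. Of 7 Notch genes, none was higher and 3 were lower. LFNG, a glycosyltransferase that tunes Notch, stood at 107 CPM in the papilla and 363 in the pulp, 3.38-fold lower (3.02 to 3.78), and NOTCH1 at 116 CPM in the papilla and 239.8 in the pulp, 2.07-fold lower (1.85 to 2.32). HEY1, a Notch target, stood at 23.8 CPM in the papilla and 61.2 in the pulp, 2.57-fold lower (2.01 to 3.31). EDA, the ectodysplasin ligand of skin appendages, was the single measured member of its pathway, at 2.65 CPM in the papilla and 10.3 in the pulp, 3.90-fold lower (1.92 to 8.93).

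Of 5 measured retinoic acid genes, 3 were lower and none higher, with a median of -4.44, and of 0.02 when members under the minimum are let in. STRA6, the cell surface receptor that takes up vitamin A, stood at 0.588 CPM in the papilla and 33.4 in the pulp, 56.7-fold lower (15.5 to 472), beside ALDH1A3 and CRABP1 given above. RXRA, a nuclear receptor, was within 2-fold at 10.9 CPM in the papilla and 6.88 in the pulp. STRA6, ALDH1A3 and CRABP1, 1 gene each for uptake, synthesis and binding, were thus on the pulp side, while the nuclear receptor was not. Of genes named after their values were seen, DHRS3 was within 2-fold, at 14.4 CPM in the papilla and 12.4 in the pulp. ALDH1A1, a further enzyme of synthesis, was under the minimum with 16 counts in the papilla and 9 in the pulp, 3.04-fold higher (1.27 to 7.81).

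In the insulin-like growth factor family, 3 of 7 genes were higher and 3 lower. The ligands were on the pulp side: IGF2 stood at 28.5 CPM in the papilla and 231 in the pulp, 8.08-fold lower (6.57 to 10.04). IGF1 stood at 4.12 CPM in the papilla and 22.4 in the pulp, 5.43-fold lower (3.12 to 10.2). Binding proteins, which hold the ligands in the extracellular space, split. IGFBP7 stood at 1621 CPM in the papilla and 287 in the pulp, 5.65-fold higher (5.35 to 5.97), and IGFBP2 at 606 CPM in the papilla and 118 in the pulp, 5.12-fold higher (4.70 to 5.59). IGFBP5, chosen after its values were seen, stood at 225 CPM in the papilla and 871 in the pulp, 3.87-fold lower (3.58 to 4.18). Of 11 other growth factor ligands, 6 were higher and 2 lower. NOV, a matricellular protein of the CCN family, stood at 454 CPM in the papilla and 47.3 in the pulp, 9.60-fold higher (8.44 to 10.95), and GAS6, the ligand of the TAM receptors, at 58.8 CPM in the papilla and 9.80 in the pulp, 6.002-fold higher (4.45 to 8.20). PDGFB stood at 3.24 CPM in the papilla and 15.5 in the pulp, 4.78-fold lower (2.55 to 9.92), on the same side as its receptor PDGFRB. Of 11 growth factor receptors, 2 were higher and 2 lower, near the 14.7% and 19.1% of all records. GFRA1, a receptor for GDNF, stood at 12.1 CPM in the papilla and 1.55 in the pulp, 7.79-fold higher (3.73 to 18.2).

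Peptide hormone genes were mostly on the pulp side, except OSTN: of 13 measured, 1 was higher and 7 lower. NPY, neuropeptide Y, stood at 3.53 CPM in the papilla and 69.3 in the pulp, 19.6-fold lower (11.1 to 38.3). POMC, the precursor of melanocortins and endorphin, stood at 12.7 CPM in the papilla and 112 in the pulp, 8.89-fold lower (6.53 to 12.4). SST, somatostatin, held 11.9 CPM in the pulp (69 counts) and was unlisted in the papilla, at least 13-fold lower. With PENK, these are genes of neuropeptides, whereas of 15 nerve and glia markers only TUBB3 reached the minimum, at 10.9 CPM in the papilla and 20.3 in the pulp. Of 20 guidance genes, 6 were higher and 6 lower. NTN1, netrin 1, stood at 1.47 CPM in the papilla and 46.8 in the pulp, 31.8-fold lower (13.5 to 98.7), and NTN4 stood at 14.1 CPM in the papilla and 1.38 in the pulp, 10.3-fold higher (4.81 to 25.1), so that the pair of netrins lay on opposite sides. RGMB, a BMP coreceptor of the repulsive guidance family, stood at 7.94 CPM in the papilla and 0.516 in the pulp, 15.4-fold higher (4.74 to 79.3). Of 16 adhesion genes, 4 were higher and 2 lower. CDH8, a classical cadherin known from the nervous system, stood at 4.41 CPM in the papilla and 80.0 in the pulp, 18.1-fold lower (10.9 to 32.6), and VCAM1, which captures leukocytes, at 12.4 CPM in the papilla and 44.5 in the pulp, 3.60-fold lower (2.59 to 5.12).

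Of 41 transcription factors of the developmental families, 8 were higher and 15 lower, with a median of -0.35. Among homeobox genes 3 of 12 were higher and 3 lower. BARX2 held 13.2 CPM in the papilla (45 counts) and was unlisted in the pulp, at least 25-fold higher. MSX2, a BMP target of skin appendages, stood at 8.24 CPM in the papilla and 0.86 in the pulp, 9.58-fold higher (3.65 to 31.8), and PRRX2, a mesenchymal factor, at 42.1 CPM in the papilla and 12.0 in the pulp, 3.49-fold higher (2.61 to 4.72). In the HOX clusters none of 9 was higher and 4 were lower. HOXA11 stood at 1.18 CPM in the papilla and 44.2 in the pulp, 37.6-fold lower (14.49 to 139), and HOX1.4, the record of HOXA4, at 9.12 CPM in the papilla and 35.1 in the pulp, 3.85-fold lower (2.63 to 5.81). HOX codes mark body position, and the labels do not give the skin region of either library. Among the other families, 5 of 20 were higher and 8 lower. RUNX3 stood at 25.3 CPM in the papilla and 1.89 in the pulp, 13.4-fold higher (7.11 to 27.8). RUNX1 held 6.77 CPM in the papilla (23 counts) and was unlisted in the pulp, at least 13-fold higher. Both RUNX genes reached the minimum in the papilla only, so the minimum itself favoured their shared side. RUNX2, named after its values were seen, was under the minimum with 3 counts in the papilla and 5 in the pulp. SNAI2, a mesenchymal repressor, and HAND2, both chosen after their values were seen, were on the pulp side. SNAI2 stood at 57.7 CPM in the papilla and 372 in the pulp, 6.45-fold lower (5.57 to 7.51), and HAND2 at 32.7 CPM in the papilla and 141 in the pulp, 4.31-fold lower (3.53 to 5.30).

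A list of 21 genes linked to the dermal papilla, drawn largely from work on hair follicles in mammals, did not lie on the papilla side: 6 were higher and 10 lower, with a median of -0.88. DKK2, NOG, MSX2, FGF7, BMP7 and RSPO3 were the 6 higher members. CRABP1, LEF1, HHIP and SFRP2 were among the 10 lower. As a whole the list was thus not higher in the library labelled papilla than in the pulp.

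Markers of other cells differed between the libraries in 3 main ways. Leukocyte markers were lower in the papilla for 16 of 17 measured genes, with a median of -2.24, and their summed level was 101 CPM against 868 in the pulp. C1QB, a complement chain made by macrophages, stood at 10.6 CPM in the papilla and 285 in the pulp, 26.9-fold lower (19.4 to 38.6). LCP1, the leukocyte plastin, stood at 5.002 CPM in the papilla and 56.4 in the pulp, 11.3-fold lower (6.94 to 19.6), and LY86, a partner of toll-like receptors on myeloid and B cells, at 23.5 CPM in the papilla and 199.7 in the pulp, 8.48-fold lower (6.76 to 10.8). Markers of macrophages and of T cells were low in the papilla together, and CD8A and MARCO were unlisted there. Endothelial markers were lower for 5 of 14 and higher for none, the rest being within 2-fold, with summed levels of 447 and 781. SOX18 gave the largest part of the difference between these sums. PECAM1, named after its values were seen, was within 2-fold, at 128 CPM in the papilla and 98.7 in the pulp. SOX18, a vascular and dermal papilla factor, stood at 89.2 CPM in the papilla and 299.8 in the pulp, 3.36-fold lower (2.97 to 3.81), and CLDN5, the endothelial tight junction protein, at 2.65 CPM in the papilla and 13.4 in the pulp, 5.07-fold lower (2.54 to 11.5). Epithelial markers went the other way, with 7 of 8 higher, a median of 1.97 and summed levels of 764 and 125. The same sum in the epithelium library was 2589. KRT14 made up most of the papilla sum, and without it the sums were 148 CPM in the papilla, 39.9 in the pulp and 2111 in the epithelium. The epithelial member that was not higher, ST14, was within 2-fold, at 6.77 CPM in the papilla and 9.98 in the pulp. KRT8, a keratin outside this list and high in the epithelium, was on the pulp side, as given above.

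Among the epithelial markers, KRT14, a basal keratin, stood at 616 CPM in the papilla and 85.1 in the pulp, 7.24-fold higher (6.56 to 7.997), with 479 in the epithelium. KRT15, its close relative, stood at 36.5 CPM in the papilla and 7.22 in the pulp, 5.05-fold higher (3.53 to 7.35). TP73L, the record of the basal factor TP63, stood at 8.53 CPM in the papilla and 1.20 in the pulp, 7.09-fold higher (3.04 to 19.2), and CLDN1, an epidermal claudin, held 19.4 CPM in the papilla (66 counts) and was unlisted in the pulp, at least 37-fold higher. Keratins have near-identical copies, so single keratin counts are uncertain. These genes lay on the same side as COL17A1, LAMA5 and FGFBP1, and the part of epithelial cells in those values was not tested. Erythroid counts were lower in the papilla for 2 of 3 genes: HBA1, an alpha globin, stood at 98.0 CPM in the papilla and 357 in the pulp, 3.65-fold lower (3.25 to 4.11). The beta globin record HBB, chosen after its values were seen, held 279 counts in the papilla and 8105 in the pulp, 17.0-fold lower (15.1 to 19.2). Globin copies are alike in sequence, so single globin counts are uncertain. Of 5 melanocyte markers 4 were lower, with sums of 6.77 and 37.3. KIT, the receptor of melanoblasts, stood at 0.588 CPM in the papilla and 15.8 in the pulp, 26.9-fold lower (7.24 to 225), and TYR, the pigment enzyme, held 8.43 CPM in the pulp (49 counts) and was unlisted in the papilla, at least 9-fold lower. TYRP1, a further pigment enzyme, was unlisted in the papilla as well and stood at 3.96 CPM in the pulp. The epithelium was above the pulp for these genes, with 276 CPM of TYRP1, 106 of TYR and 38.8 of KIT. Of 4 adipocyte markers 1 was higher and 2 lower. ADIPOQ, the hormone adiponectin, stood at 470.2 CPM in the papilla and 46.8 in the pulp, 10.1-fold higher (8.83 to 11.5). The lower members were LPL, 2.35-fold lower (1.74 to 3.22), and CEBPA. CEBPA held 21 counts in the pulp and was unlisted in the papilla, at least 4-fold lower. ACSL1 was within 2-fold, so the adipocyte markers were not on 1 side. Of 3 cartilage, bone and tendon markers 2 were higher: COMP, a cartilage and tendon matrix protein, stood at 221 CPM in the papilla and 11.2 in the pulp, 19.8-fold higher (15.3 to 25.9), and SOX9, the chondrogenic factor, at 12.9 CPM in the papilla and 1.20 in the pulp, 10.8-fold higher (4.80 to 28.3).

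Interferon-induced genes act against viruses and are switched on together by interferon receptors. All 15 measured were lower in the papilla, with a median of -2.80 and summed levels of 159.8 and 1922. OASL, an oligoadenylate synthetase-like protein, stood at 20.3 CPM in the papilla and 446 in the pulp, 21.96-fold lower (17.3 to 28.3). ZNFX1, an RNA helicase, stood at 10.9 CPM in the papilla and 239.6 in the pulp, 22.01-fold lower (15.9 to 31.4), and IRF7, which amplifies the response, at 4.71 CPM in the papilla and 83.6 in the pulp, 17.8-fold lower (10.8 to 31.3). The same list summed to 128 in the resting papilla, 45.1 in the epithelium and 1211 on day 2. On day 4 the sum was 189. Pulp and the day 2 library were thus the highest, and leukocyte markers were on the same side in the pulp; their part in these values was not tested.

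Of 6 antigen presentation genes, 1 was higher and 5 lower, and the higher one was BF2, a class I chain, named after its values were seen, at 308 CPM in the papilla and 127 in the pulp. BLB2, a class II beta chain, stood at 95.9 CPM in the papilla and 699 in the pulp, 7.28-fold lower (6.51 to 8.18). CD74, the invariant chain of class II, stood at 235 CPM in the papilla and 849.9 in the pulp, 3.61-fold lower (3.35 to 3.90), and TAPBP, the class I loading factor tapasin, at 33.0 CPM in the papilla and 122 in the pulp, 3.71-fold lower (3.04 to 4.57). Chain genes of the histocompatibility complex have near-identical copies, so their single counts are uncertain. Of 5 complement genes, 3 were lower. C1R, the first protease of the classical pathway, stood at 14.4 CPM in the papilla and 122 in the pulp, 8.45-fold lower (6.32 to 11.5), with C1S at 14.4 CPM in the papilla and 82.0 in the pulp, 5.69-fold lower (4.24 to 7.80), and MASP1, of the lectin pathway, at 0.588 CPM in the papilla and 15.996 in the pulp, 27.2-fold lower (7.32 to 228). Of 5 measured chemokines and cytokines, 2 were lower, CCL26 and CXCL14, and IL16 stood at 21.2 CPM in the papilla and 13.4 in the pulp.

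Of 22 mitosis genes none was higher and 9 were lower, with a median of -0.87. Of 15 replication genes none was higher and 3 were lower, with a median of -0.20, so that the replication genes had a share of lower members near the 19.1% of all records. CDC2, the record of the mitotic kinase CDK1, stood at 51.5 CPM in the papilla and 137 in the pulp, 2.67-fold lower (2.26 to 3.16). AURKB, the kinase of chromosome segregation, stood at 5.30 CPM in the papilla and 19.4 in the pulp, 3.67-fold lower (2.22 to 6.42), and MCM5, a subunit of the replicative helicase, at 7.36 CPM in the papilla and 53.0 in the pulp, 7.20-fold lower (4.79 to 11.3). Of 9 growth arrest genes, 2 were higher and 1 lower. BTG2, an antiproliferative immediate early gene, stood at 239.8 CPM in the papilla and 65.0 in the pulp, 3.69-fold higher (3.26 to 4.18), and TOB, its relative TOB1, at 29.1 CPM in the papilla and 7.57 in the pulp, 3.85-fold higher (2.67 to 5.62). RBL1 was the lower member, at 0.883 CPM in the papilla (3 counts) and 5.68 in the pulp, 6.43-fold lower (2.02 to 32.8). The growth arrest genes were thus not on 1 side.

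Immediate early genes, which switch on rapidly after a stimulus, were higher for 6 of 10 and lower for none, with a median of 1.61. FOS stood at 147 CPM in the papilla and 40.9 in the pulp, 3.60-fold higher (3.08 to 4.22). GADD45G stood at 75.6 CPM in the papilla and 10.3 in the pulp, 7.33-fold higher (5.51 to 9.87), and DUSP1, a phosphatase of MAP kinases, at 48.5 CPM in the papilla and 12.6 in the pulp, 3.87-fold higher (2.92 to 5.17). Glycolysis genes were higher for 7 of 14 and lower for 1. TPI1, triose phosphate isomerase, stood at 123 CPM in the papilla and 24.4 in the pulp, 5.04-fold higher (4.15 to 6.14), and LDHA, which makes lactate, at 89.2 CPM in the papilla and 20.6 in the pulp, 4.32-fold higher (3.49 to 5.38). LDHB, chosen after its values were seen, stood at 1096 CPM in the papilla and 1489 in the pulp, so that of the A and B subunit genes of lactate dehydrogenase only the A gene differed by 2-fold. Of 12 hypoxia genes, 3 were higher, 1 lower and the rest within 2-fold, so the list was not on 1 side. The lower member, ERO1L, stood at 6.77 CPM in the papilla and 17.2 in the pulp. HIF1A, the oxygen-regulated factor, stood at 137 CPM in the papilla and 60.2 in the pulp, 2.27-fold higher (1.97 to 2.61), and BNIP3, a mitophagy receptor, at 113 CPM in the papilla and 53.3 in the pulp, 2.12-fold higher (1.82 to 2.48).

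Heat shock proteins and chaperones were higher for 6 of 22 and lower for 2. The small heat shock proteins HSPB7, HSPB8 and HSPB1 were at the top of this list. HSPB8 stood at 172 CPM in the papilla and 8.26 in the pulp, 20.9-fold higher (15.5 to 28.6), and HSPB1 at 358 CPM in the papilla and 26.0 in the pulp, 13.8-fold higher (11.6 to 16.4). Both lower members, HSPA5 and DNAJA1, were chosen after their values were seen. HSPA5, the endoplasmic reticulum chaperone BiP, stood at 498 CPM in the papilla and 1580.3 in the pulp, 3.17-fold lower (3.01 to 3.34). In the secretory pathway 2 of 33 were higher and 6 lower, the latter near the 19.1% of all records. PDIA6 stood at 211 CPM in the papilla and 816 in the pulp, 3.87-fold lower (3.58 to 4.20), and PDIA4 at 181 CPM in the papilla and 612 in the pulp, 3.39-fold lower (3.11 to 3.70), both disulfide isomerases of the endoplasmic reticulum, on the same side as HSPA5. COPA, the alpha coatomer subunit, went the other way, at 72.7 CPM in the papilla and 3.44 in the pulp, 21.1-fold higher (13.4 to 35.2). Of 17 sterol and lipid synthesis genes, 3 were higher, near the 14.7% of all records, and 2 were lower, under the 19.1%. FASN, fatty acid synthase, stood at 1.77 CPM in the papilla and 37.5 in the pulp, 21.2-fold lower (9.60 to 58.5).

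Of 27 ion channel genes, 8 were higher and 10 lower. The higher ones included the smooth muscle channels KCNMB1 and CACNA1H. KCNF1, a modifier subunit of potassium channels, held 8.83 CPM in the papilla (30 counts) and was unlisted in the pulp, at least 17-fold higher, and KCNJ15, an inward rectifier, held 7.74 CPM in the pulp (45 counts) and was unlisted in the papilla, at least 8-fold lower. Of 93 solute carriers, 10 were higher and 21 lower, near the 14.7% and 19.1% of all records. SLC4A7, a sodium bicarbonate cotransporter, stood at 58.3 CPM in the papilla and 3.61 in the pulp, 16.1-fold higher (10.3 to 26.6), and SLC2A10, a sugar transporter, at 0.588 CPM in the papilla and 12.4 in the pulp, 21.0-fold lower (5.62 to 177).

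Constitutive machinery lay near equality. Of 50 ribosomal protein genes 1 was higher and 5 lower, with a median of -0.03, and the furthest was RPS2 at 790.0 CPM in the papilla and 3314 in the pulp, 4.19-fold lower (4.03 to 4.37). Ribosomal proteins have many processed copies, so single members are uncertain. Of 38 oxidative phosphorylation genes 3 were higher and 1 lower, with a median of 0.21. Of 49 mitochondrial ribosomal protein genes 6 were higher and 5 lower, with a median of 0.00. Of 29 proteasome genes none was higher and 3 were lower, and of 13 housekeeping genes 1 was higher and none lower. Against the 14.7% higher and 19.1% lower of all records, these groups held smaller shares of differing genes on each side. In the plot of 23 of the 48 lists, the smooth muscle, epithelial and immediate early medians lie furthest to the right, and the leukocyte and interferon-induced medians furthest to the left. Of the lists not plotted, retinoic acid stood at -4.44, complement at -2.43, melanocyte at -2.31, and cartilage, bone and tendon at 2.66, each on 3 to 5 measured genes.

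**Figure D5:**
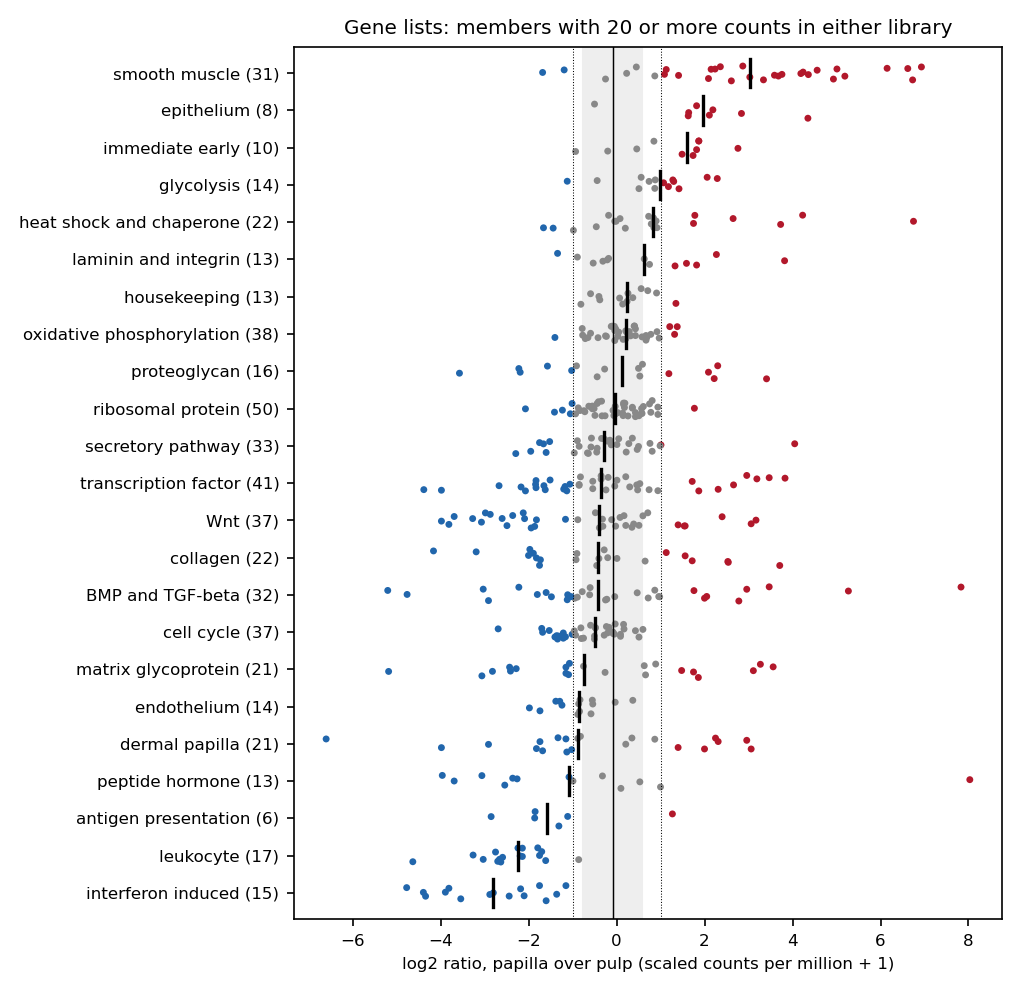
Log2 ratio of papilla over pulp (x axis) for the measured members of 23 gene lists, 1 point per gene, red where at least 2-fold higher and blue where at least 2-fold lower, with the number of members in brackets and a black bar at each median. The grey band and the thin line give the quartiles and the median of all 6667 records, and dotted lines mark 2-fold.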

How the data were processed

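Total RNA was extracted with Trizol and sequenced with standard Illumina libraries, per the labels' protocols. Each table gives, per the file headers, a gene expression column, in which the authors deposited whole-number counts for RefSeq transcripts, with no count under 2. A further deposited column, headed TPM, is not divided by transcript length: per its values it is in RPM, on a library total that exceeds the listed counts. That total was computed back from records of 500 or more counts. The submitters' processing notes name the genome build mm10, a mouse build, although the records were named from a chicken RefSeq gene table (GRCg7b). Aligner, counting and strandedness: not given in the sources used here.

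Records were named by the table's symbol (4821), by gene identifier (5008) or by accession (10), and 1125 had no name. Scaling used the trimmed mean of M values over the 6 libraries (edgeR 4.0.16, R 4.3.3) on the recovered totals. Log2 ratios had a pseudocount of 1. Each group had 1 library, so edgeR served for scaling only and no test was made. Intervals are exact conditional binomial (Clopper-Pearson) at 95%, for counting error only. PCR reads without molecular identifiers are not independent molecules. The calculation was checked on simulated counts. Further work used Python 3.11.15 with numpy 2.4.6, scipy 1.17.1, pandas 2.3.3 and matplotlib 3.10.9.

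The comparison and the 48 lists were chosen with earlier results of these data known, so no list is independent support for its direction. Genes were named by rule: the 15 highest and 15 lowest ratios among named records with at least 200 counts, up to 4 members of each list and role by absolute ratio, the 10 most abundant records of each library and the 8 most abundant within 25%. Genes outside this rule were picked after their values were seen, COL17A1, CD8A, MARCO, SOSTDC1, SFRP2 and DNAJA1 among them. In lists, the record with the most counts stood for its gene. The 13 alternatives were 5 other scalings, pseudocounts of 0.1 and 5, no filter, minimums of 200 reads and of 10 scaled CPM, a 4-fold rule, a sum over records per symbol and, added after seeing the data, leaving out records in which the epithelium and pulp tables stand apart. The epithelial sum without KRT14 was also added after seeing the data. No library could be left out. Coordinates and sequences were not used, and promoter motifs and proteins were not analysed here.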

Additional observations from a re-analysis of the deposited data

How the results depend on the processing

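No paired analysis was possible because each group had 1 library. The other scalings and the sum per symbol kept the overall counts within 1.5 times and turned no list median. Of 226 named genes at 2-fold or more, 1 fell under 2-fold with median-of-ratios scaling, 1 with the values as deposited and 19 with a pseudocount of 5, and none changed sign under the alternatives run. The log2 ratio moved beyond its counting error for 2 of 271 named genes with upper-quartile scaling, 6 with the values as deposited, 18 with a pseudocount of 0.1 and 36 with one of 5. A pseudocount of 0.1 gave medians of 3.61 for smooth muscle, -4.53 for melanocyte, 3.32 for cartilage, bone and tendon, and -5.60 for retinoic acid genes. A pseudocount of 5 gave 810 lower records and medians of 2.47 for smooth muscle, -1.43 for leukocyte, -1.91 for complement, -0.84 for melanocyte, 1.34 for epithelium, 1.53 for cartilage, bone and tendon, and -2.78 for retinoic acid genes. With no filter on low counts the medians were 2.08 for smooth muscle, 0.58 for striated muscle, -0.96 for erythroid, 0.22 for cartilage, bone and tendon, 0.11 for matrix glycoprotein and -0.81 for insulin-like growth factor genes. In that setting 2 medians of 2-fold or more turned in direction, retinoic acid at 0.02 and other growth factor ligands at -0.05, as members with few counts enter the list. Medians nearer to 0 also changed sign: with retinoic acid, 4 of 47 lists did so there, 5 of 38 at a minimum of 200 reads, 2 of 44 at 10 scaled CPM and 1 of 46 without the records that stand apart. A minimum of 200 reads left 299 higher and 502 lower records, with medians of 4.19 for smooth muscle, -2.89 for leukocyte, -1.39 for complement, -1.35 for Wnt, 1.24 for other growth factor, -2.54 for peptide hormone, -1.50 for guidance, -1.24 for transcription factor, -0.17 for sterol and 2.15 for ion channel genes. A minimum of 10 scaled CPM gave 0.77 for pericyte, 2.22 for striated muscle, -2.13 for chemokine, 0.12 for adipocyte, -1.02 for Wnt, -1.62 for peptide hormone and 0.91 for ion channel genes. These minimums leave fewer genes by construction. The 4-fold rule gave 301 higher and 410 lower records. Without the records that stand apart in the epithelium and pulp tables, the melanocyte median was -1.80, and the cause was not tested. The papilla's smaller total limits what can be said of genes with few counts there, and 1 library per tissue leaves the spread between birds unmeasured.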

Other observations

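Further genes outside the lists, all chosen after their values were seen, lay far apart between the papilla and the pulp. DMD, the membrane linker dystrophin of muscle, stood at 200.1 CPM in the papilla and 16.5 in the pulp, 12.1-fold higher (9.77 to 15.2). FHL2, a LIM-domain coactivator, stood at 100.3 CPM in the papilla and 6.19 in the pulp, 16.2-fold higher (11.5 to 23.5). PALLD, the actin-bundling protein palladin, stood at 2072 CPM in the papilla and 251 in the pulp, 8.26-fold higher (7.80 to 8.74). Because these cytoskeletal genes were picked after their values were seen, lying on the side of the contractile genes is no separate result. CKB, the creatine kinase of brain and smooth muscle, stood at 1572 CPM in the papilla and 179 in the pulp, 8.79-fold higher (8.22 to 9.40). RRAD, a small GTPase that lowers calcium channel activity, stood at 124 CPM in the papilla and 7.74 in the pulp, 16.004-fold higher (11.8 to 22.3).

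The genes picked on the pulp side included enzymes of small-molecule synthesis, and their shared side follows from that choice. PHGDH, the first enzyme of serine synthesis, stood at 6.47 CPM in the papilla and 125 in the pulp, 19.3-fold lower (12.7 to 31.1). ASS1, argininosuccinate synthase, stood at 13.5 CPM in the papilla and 183 in the pulp, 13.5-fold lower (10.1 to 18.6). SPR, sepiapterin reductase, which makes tetrahydrobiopterin, stood at 3.53 CPM in the papilla and 57.6 in the pulp, 16.3-fold lower (9.22 to 31.9). GCHFR, the feedback regulator of the enzyme that starts the same pathway, stood at 3.24 CPM in the papilla and 58.8 in the pulp, 18.2-fold lower (10.03 to 36.8). SALL1, a zinc finger transcription factor, stood at 13.2 CPM in the papilla and 119.7 in the pulp, 9.04-fold lower (6.68 to 12.5). APLNR, the apelin receptor of vessels, stood at 5.30 CPM in the papilla and 49.9 in the pulp, 9.42-fold lower (5.85 to 16.1). SLC40A1, the iron exporter ferroportin, stood at 25.01 CPM in the papilla and 165 in the pulp, 6.62-fold lower (5.30 to 8.36), on the same side as FTH1.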
